A study of Homo sapiens with 12 samples.

Results

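The mitochondrial ribosomal protein genes were taken as all protein-coding genes of the input expression table whose symbol begins with MRPL or MRPS. Of 20308 genes in the table, 76 met the rule, 48 with an MRPL and 28 with an MRPS symbol, and all 76 were abundant enough to be tested. MRPS21 and MRPL45 were not analysed here. The cells were C4-2, a human prostate cancer line, and the groups compared were total RNA of C4-2 cells that overexpressed the m6A demethylase ALKBH5 (oeALKBH5) and of C4-2 cells with an empty vector (NC), with 3 input libraries each. The overexpression promoter and whether each group was a clone or a pool are not given in the sources used here, and nothing says that replicates were separate cultures, so the spread behind the p-values may be technical. In bulk RNA, fewer cells of a type and less RNA per cell cannot be told apart.

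Mitochondria carry their own ribosomes, which make the proteins encoded by mitochondrial DNA, all of them subunits of the respiratory chain and ATP synthase. The RNA of these ribosomes is transcribed inside the organelle, whereas every ribosomal protein is encoded in the nucleus, made in the cytosol and imported. The large subunit joins amino acids and releases the chain through a tunnel to the inner membrane; the small subunit binds and decodes the mRNA. Some of the proteins descend from bacterial ribosomal proteins, and others are found only in mitochondrial ribosomes. Inherited defects of several of these genes, such as MRPL3, MRPL44, MRPS16 and MRPS22, cause respiratory chain disease.

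As a check of the labels, ALKBH5 stood at 80.3, 74.3 and 72.5 FPKM in the oeALKBH5 libraries, against 64.9, 61.1 and 58.2 FPKM in the NC libraries (FPKM, fragments scaled by transcript length and library size). Its log2 fold change of 0.30 (SE 0.10) missed the threshold (limma adjusted p = 0.114); whether reads of the construct are part of this value is not given in the sources used here. Summed FPKM ranged from 511333 to 524905 per library, and the absolute depth is unknown. The luminal prostate line was checked by its markers: KRT8, a luminal keratin, was at 223 ± 13.2 FPKM in oeALKBH5 and 137 ± 8.44 FPKM in NC libraries (SD, n = 3 each) and was called higher, with a log2 fold change of 0.70. Of 7 fibroblast markers, DCN and LUM were listed at 0 in every library. The 3 tested, COL1A1, PDGFRB and VIM, all had positive log2 fold changes. COL1A1 reached 27.6 FPKM in oeALKBH5 replicate 2 and had a log2 fold change of 0.43. Of 7 immune markers, 3 were tested, with log2 fold changes of 1.07 for CD3D, 1.27 for LYZ and -0.34 for CD3E. None of these fibroblast and immune markers was called. VIM had a log2 fold change of 0.78 (limma adjusted p = 0.0598), the highest mean of an immune marker was 2.32 FPKM for LYZ, and the part of such markers in the results was not tested.

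The comparison asked how total RNA differed between oeALKBH5 and NC cells. Most mitochondrial ribosomal protein genes were slightly lower in oeALKBH5 cells: 63 of 76 had a negative log2 fold change, where 47.7% of all tested genes did. The differences were small, with a median of -0.18 on the log2(FPKM + 1) scale and a range of -0.61 to 0.36, and the median over all 12757 tested genes was 0.02. By limma with Benjamini-Hochberg adjustment over all tested genes, 4 of the 76 fell, MRPS33, MRPL21, MRPS24 and MRPL20, against 2.43% of all genes called lower and 5.45% called in either direction. None rose, against 3.02% of all genes called higher; at an unadjusted p below 0.05, 20 members were lower and 1, MRPL10, was higher, where 10.3% of all tested genes were lower and 11.6% higher. The other 72 did not pass the test, which does not show that they were alike in both groups: for 40 of the 76, the 95% interval of the log2 fold change reached below -0.5.

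All 3 oeALKBH5 libraries lay below all 3 NC libraries in 22 members, or 28.9%, where this held for 13.0% of all tested genes. The reverse, all oeALKBH5 libraries above, held for MRPL10 alone, or 1.32%, against 15.1% of all tested genes. Genes of like abundance were the 4808 other tested genes with a mean between 17.8 and 115 FPKM, the 5th to 95th percentile of the members. Of these, 52.6% had a negative log2 fold change, 17% lay below in all libraries, and the median was -0.02. Of the same genes, 3.16% were called lower and 3.29% higher. At an unadjusted limma p below 0.05 there were 1227 of them, 686 lower. No member had a log2 fold change of 1 or more in size, and 36 of 76 lay between -0.2 and 0.2. Across the 76 genes, which share libraries and are not independent replicates, the log2 level and the log2 fold change had a Pearson's r of -0.28 and a Spearman's rho of -0.32.

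**Figure D1:**
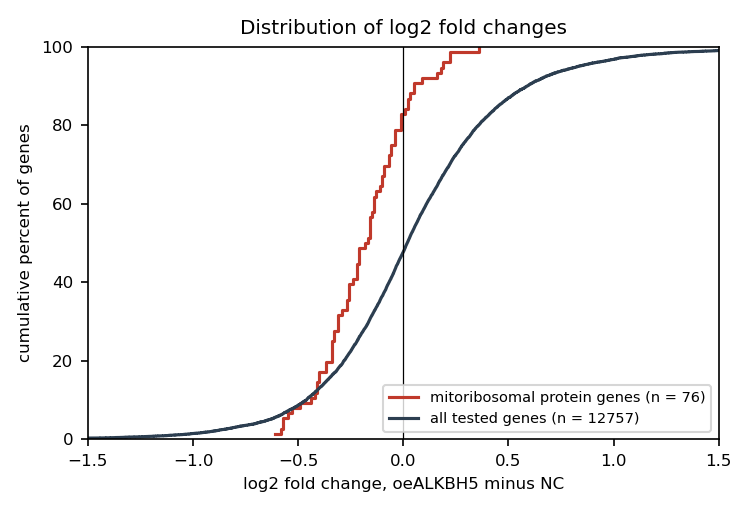
Cumulative percent of genes (vertical axis) with a log2 fold change, oeALKBH5 minus NC, up to the value on the horizontal axis, for the 76 mitochondrial ribosomal protein genes (red) and all 12757 tested genes (dark blue). The red curve crosses 0 at 82.9% and the dark blue curve at 47.7%, while few members lie beyond -0.5 on the left.

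Summed over the 76 genes, the level was 3911, 3594 and 3778 FPKM in oeALKBH5 replicates 1, 2 and 3, against 4188, 4483 and 4514 FPKM in NC replicates 1, 2 and 3. As a share of all FPKM of a library, this was 0.734% ± 0.0315 in oeALKBH5 and 0.846% ± 0.0283 in NC libraries (SD, n = 3 each). The groups did not overlap, and the highest oeALKBH5 library, replicate 1, lay close under the lowest NC library, replicate 1. Proteins of the large subunit summed to 2613, 2370 and 2430 FPKM in oeALKBH5 libraries, against 2736, 2959 and 2996 FPKM in NC libraries, and those of the small subunit to 1285, 1208 and 1330 FPKM against 1434, 1512 and 1501 FPKM. The ratio of the small to the large subunit sum ran from 0.492 to 0.547 in oeALKBH5 and from 0.501 to 0.524 in NC libraries, so the groups overlapped in that ratio. Within the groups the libraries were not alike: oeALKBH5 replicate 2 held the lowest of the 6 values for 29 members and NC replicate 2 the highest for 28, where these libraries held the lowest or highest value in 19.8% and 18.1% of all tested genes. With any 1 library left out, between 60 and 68 members had a negative log2 fold change.

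**Figure D2:**
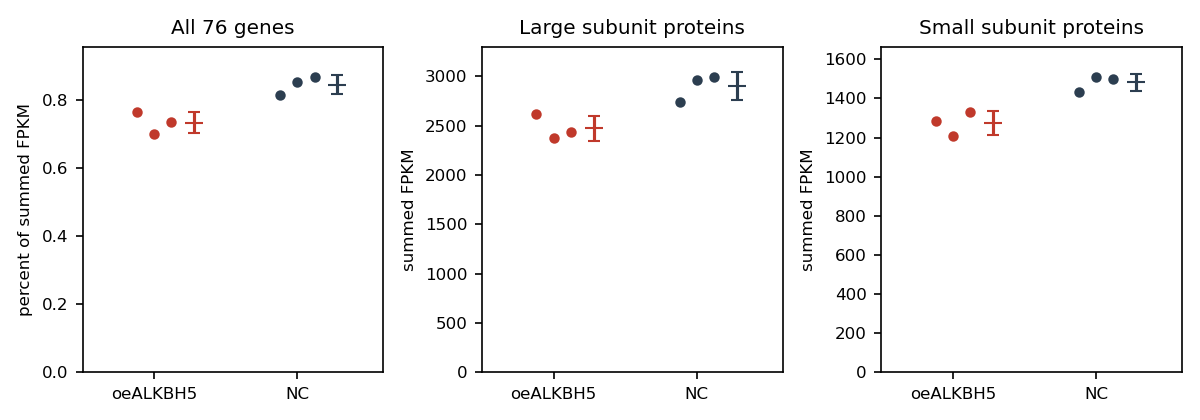
Share of summed FPKM taken by the 76 genes (left, percent) and summed FPKM of the proteins of the large (middle) and small (right) subunit, for each oeALKBH5 and NC library (points), with the mean and SD of 3 libraries beside them. In each panel the 3 oeALKBH5 libraries lie below the 3 NC libraries, by 0.765% and less against 0.815% and more in the left panel.

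Of the 4 genes that fell, MRPS33, a small-subunit head protein found only in mitochondria, was at 136, 128 and 128 FPKM in oeALKBH5 libraries, against 169, 167 and 169 FPKM in NC libraries. Its log2 fold change was -0.37 (SE 0.07, limma adjusted p = 0.0235), a mean 22.6% lower, and replicates of each group lay close together. MRPL21, counterpart of bacterial L21, an RNA-binding protein of the large subunit, was at 54.3, 53.4 and 58.1 FPKM in oeALKBH5 libraries, against 73.6, 76.7 and 75.7 FPKM in NC libraries (log2 fold change -0.44, SE 0.09, limma adjusted p = 0.0307). MRPS24, the counterpart of bacterial S3 at the site where mRNA enters the small subunit, was at 68.1, 72.8 and 89.2 FPKM in oeALKBH5 libraries, against 112, 105 and 115 FPKM in NC libraries (log2 fold change -0.53, SE 0.11, limma adjusted p = 0.0337).

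MRPL20, counterpart of bacterial L20, which in Escherichia coli is needed early in the assembly of the large subunit, was at 58.4, 56.2 and 66.2 FPKM in oeALKBH5 libraries, against 78, 104 and 89.7 FPKM in NC libraries. Its log2 fold change was -0.57 (SE 0.12, limma adjusted p = 0.0354), a mean 33.4% lower. The gene overlaps the antisense gene MRPL20-AS1 in RefSeq, and the libraries were directional per the labels, but whether the counting used strand is not given. MRPS24 likewise overlaps the readthrough gene URGCP-MRPS24. In each of the 4 genes the groups did not overlap, yet the calls did not withstand smaller groups. At least 5 of the 6 leave-one-out fits, each without 1 library, ended the call of each gene: MRPL21 in all 6 (adjusted p from 0.0656 to 0.115), MRPS33 in all but the fit without oeALKBH5 replicate 1 (up to 0.0974), MRPS24 in all but that without oeALKBH5 replicate 3 (up to 0.134) and MRPL20 in all but that without NC replicate 1 (up to 0.126). All 4 were also lost without the intensity trend, with adjusted p between 0.104 and 0.145.

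**Figure D3:**
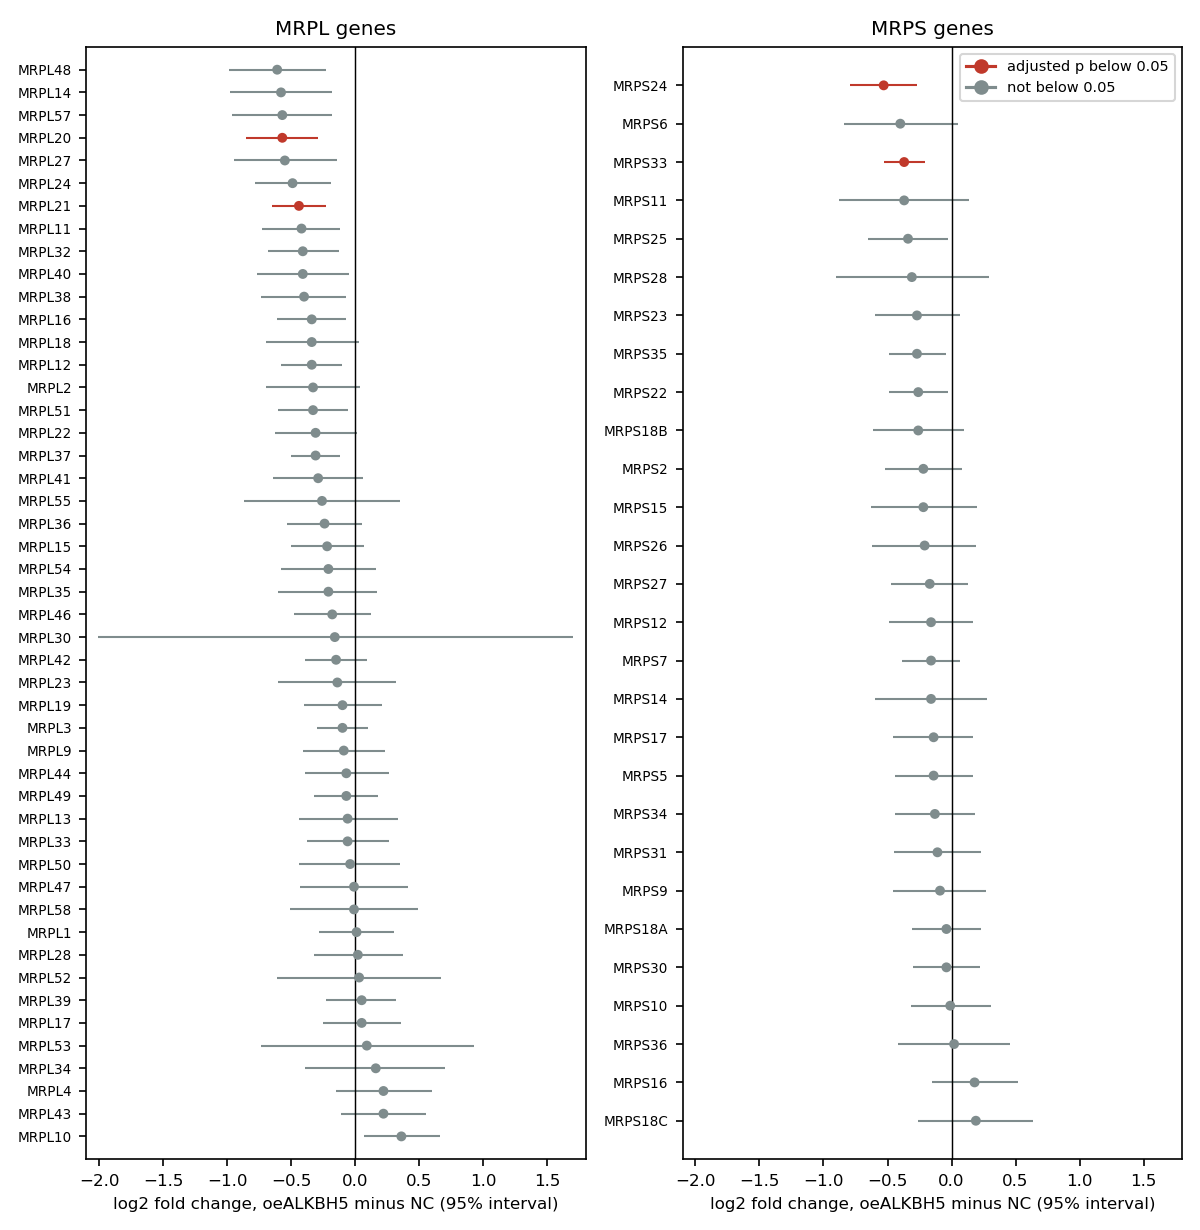
Log2 fold change, oeALKBH5 minus NC, with its 95% interval for each of the 48 MRPL genes (left) and 28 MRPS genes (right), ordered from lowest at the top to highest at the bottom. The 4 genes with an adjusted p below 0.05 are red; most intervals cross 0, and MRPL30 has the widest, from -2.01 to 1.70.

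The large subunit holds 50 of the 76 proteins, since MRPS30 and MRPS18A sit in it despite their names, and the small subunit 25. The median log2 fold change was -0.17 for the large subunit, with 40 of 50 negative and 2 called lower, and -0.21 for the small subunit, with 23 of 25 negative and 2 called lower. By class, the 45 proteins listed with a bacterial counterpart had a median of -0.16 with 3 called lower. The 30 listed as mitochondria-specific had a median of -0.20 with 1 called lower. That class follows the naming of the ribosomal proteins and not their descent, since it includes MRPS18A, MRPS18B and MRPL58. Of all tested genes, 2.43% were called lower. The difference between these classes was not tested.

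The lists of ribosomal sites used next were written after the values were seen. Of the central protuberance, the crest of the large subunit that faces the small one, all 8 listed proteins had negative log2 fold changes, with a median of -0.37, and none passed the test. All oeALKBH5 libraries lay below all NC libraries in 5 of them, where this held for 13.0% of all tested genes. MRPL48 had the most negative value of all 76 genes: it was at 30.2, 26.9 and 25.9 FPKM in oeALKBH5 libraries, against 33.7, 51.9 and 44.3 FPKM in NC libraries (limma log2 fold change -0.61 with SE 0.17; adjusted p = 0.0736). The NC libraries of this gene spread widely, with replicate 1 lowest. Without that library, the one nearest the oeALKBH5 group, MRPL48 was called (limma adjusted p = 0.0384). It was not called without oeALKBH5 replicate 1, 2 or 3 (limma adjusted p of 0.112, 0.163 and 0.18). MRPL27, counterpart of bacterial L27, which reaches the peptidyl transferase centre in Escherichia coli, was at 42, 33.7 and 39.6 FPKM in oeALKBH5 libraries, against 43.6, 57.7 and 70.9 FPKM in NC libraries (log2 fold change -0.55, limma adjusted p = 0.116). MRPL40 was at 20.2, 22.8 and 24.5 FPKM against 36.5, 26.7 and 27.7 FPKM, with a log2 fold change of -0.41. MRPL58, a release factor-like hydrolase that frees stalled chains and is built into this region, had a log2 fold change of -0.01, with 52.3, 42.9 and 54.4 FPKM in oeALKBH5 libraries inside the NC range of 34.1, 65.4 and 55.7 FPKM; it was named after its values were seen.

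At the GTPase stalk, where the elongation factors dock, the 5 listed proteins went both ways and none passed the test. MRPL11, which forms the stalk base, was at 38.9, 39.8 and 30.1 FPKM in oeALKBH5 libraries, against 45.3, 51.2 and 49.6 FPKM in NC libraries (log2 fold change -0.42, limma adjusted p = 0.112). MRPL12, the repeated tip protein, named after its values were seen, was at 42.4, 40.4 and 47.1 FPKM against 54.8, 55.2 and 55 FPKM, with a log2 fold change of -0.34. MRPL10, which anchors MRPL12 to the ribosome, had the most positive value of the 76 genes: it was at 37, 36 and 42.7 FPKM in oeALKBH5 libraries, against 29.4, 27 and 32.9 FPKM in NC libraries (log2 fold change 0.36, SE 0.13, limma adjusted p = 0.149). Every oeALKBH5 library was below every NC library in MRPL12 and above every NC library in MRPL10, and neither difference passed the test. Of all tested genes, 13.0% lay wholly below in this way and 15.1% wholly above. MRPL53, also near the stalk, varied too much for a direction, with 24, 10.6 and 28.1 FPKM in oeALKBH5 libraries and 15, 27.9 and 14.1 FPKM in NC libraries.

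Around the exit of the polypeptide tunnel, 5 of 7 listed proteins had negative log2 fold changes, the median was -0.07, and none passed the test. MRPL24 was at 73.6, 79 and 74.8 FPKM in oeALKBH5 libraries, against 115, 86.7 and 121 FPKM in NC libraries. Its log2 fold change was -0.49 (SE 0.13, limma adjusted p = 0.0672). Its lowest NC library was replicate 2, the one nearest the oeALKBH5 group. Without that library, MRPL24 was called (limma adjusted p = 0.0234). It was not called without oeALKBH5 replicate 1, 2 or 3 (limma adjusted p of 0.149, 0.131 and 0.16). MRPL17 had a log2 fold change of 0.05, with 49.1, 60.1 and 49.9 FPKM in oeALKBH5 libraries against 59.3, 46.9 and 47.2 FPKM in NC libraries, and its groups overlapped. MRPL1 and MRPL9, of the L1 stalk side, lay at 0.01 and -0.09.

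Elsewhere in the large subunit, MRPL14, which contributes to the interface with the small subunit, was at 50.8, 31.5 and 35.7 FPKM in oeALKBH5 libraries, against 61.5, 51.7 and 61.9 FPKM in NC libraries (limma log2 fold change -0.58 with SE 0.18; adjusted p = 0.0965). Its oeALKBH5 replicate 1 came close to the lowest NC library, and without that replicate MRPL14 was called (limma adjusted p = 0.0326). It was not called without oeALKBH5 replicate 2 or 3 (limma adjusted p of 0.22 and 0.223). MRPL57 was at 14.4, 21.5 and 15.5 FPKM against 25.1, 26.4 and 25.1 FPKM (log2 fold change -0.57, limma adjusted p = 0.0966). MRPL32, whose maturation by the inner membrane protease AFG3L2 precedes its assembly, was at 53.3, 41.9 and 45 FPKM against 57.7, 66.3 and 62.4 FPKM (log2 fold change -0.41, limma adjusted p = 0.0933). Groups did not overlap in any of these 3 genes, which were named for their low log2 fold changes. All oeALKBH5 libraries lay below all NC libraries in 13.0% of all tested genes.

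**Figure D4:**
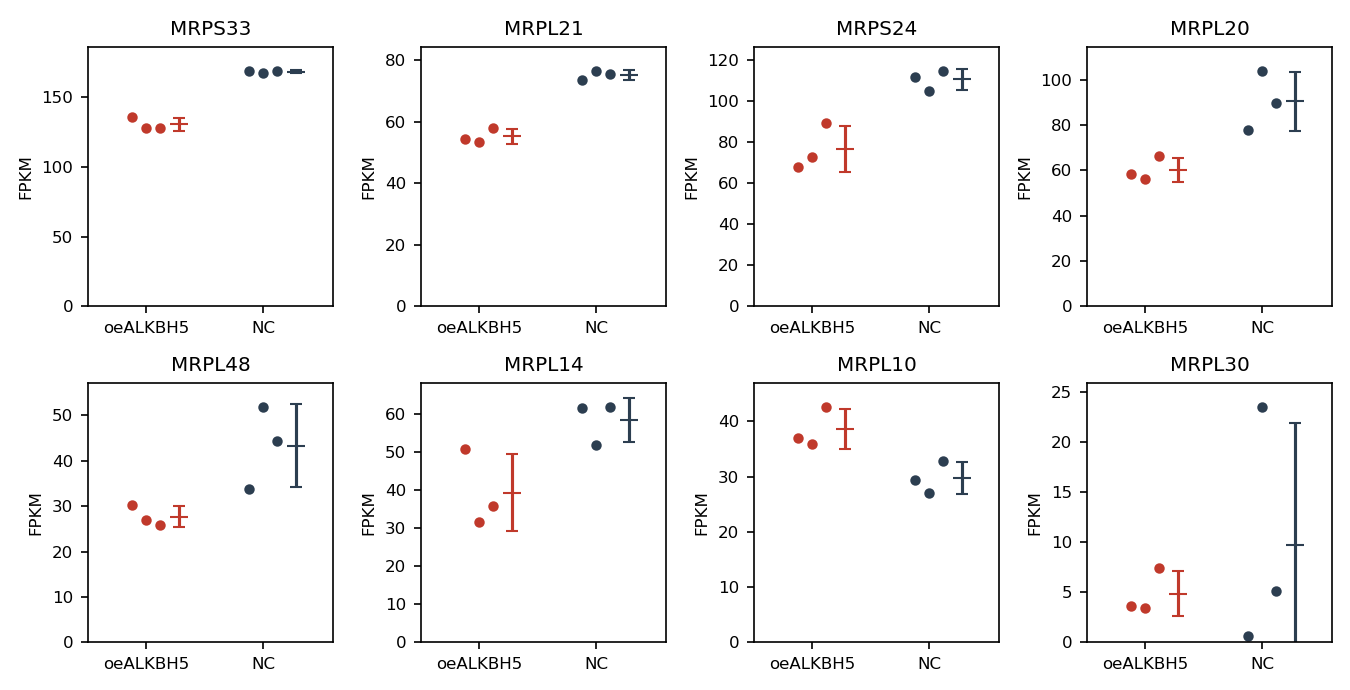
FPKM of 8 members in each oeALKBH5 and NC library (points), with the mean and SD of 3 libraries beside them. MRPS33, MRPL21, MRPS24 and MRPL20 passed the test over all genes, MRPL48, MRPL14 and MRPL10 did not though their groups do not overlap, and MRPL30 spans 0.606 to 23.5 FPKM among the NC libraries, where its SD bar is cut at 0.

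Other members stood on the positive side with groups that overlapped. MRPL43 was at 33.3, 29.9 and 37 FPKM in oeALKBH5 libraries, against 31.1, 30 and 24.4 FPKM in NC libraries, a log2 fold change of 0.22. MRPL4, the counterpart of a bacterial protein that lines the tunnel, was at 24.3, 28 and 20.2 FPKM against 23.2, 19.5 and 18.7 FPKM, likewise 0.22. MRPL34 had a log2 fold change of 0.16. MRPS16, a small-subunit protein in which inherited defects block mitochondrial translation, was at 116, 97.3 and 149 FPKM in oeALKBH5 libraries, against 105, 96.3 and 113 FPKM in NC libraries, a log2 fold change of 0.18 (95% interval -0.15 to 0.52).

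In the small subunit, all 8 listed proteins of the head had negative log2 fold changes, with a median of -0.16. Of them, 2, MRPS33 and MRPS24, were called lower, where 2.43% of all tested genes were. Of the 5 listed at the decoding centre and along the mRNA channel, 4 were negative and 1, MRPS24 again, was called. Both lists were written after the values were seen. The 3 MRPS18 paralogues, which occupy different places, differed in their values: MRPS18B, in the small subunit, had a log2 fold change of -0.26, MRPS18A, in the large subunit, -0.04, and MRPS18C, the counterpart of bacterial S18, 0.19. None of the 3 passed the test, and their groups overlapped. MRPS36, which carries the family name but serves the oxoglutarate dehydrogenase complex instead of the ribosome, was at 13.9, 15.7 and 18.6 FPKM in oeALKBH5 libraries, against 18.2, 12.4 and 17 FPKM in NC libraries, a log2 fold change of 0.02.

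Levels per length differed more between members than between groups. The median member had a mean of 42.3 FPKM over the 6 libraries; 68 members lay between 10 and 100 FPKM, 7 at 100 FPKM or more and 1, MRPL30, below 10 FPKM. MRPL51, a mitochondria-specific protein of the large subunit, was the highest in every library, at 333, 255 and 288 FPKM in oeALKBH5 and 358, 324 and 421 FPKM in NC libraries (log2 fold change -0.33, limma adjusted p = 0.148). Next in order came MRPS33, MRPL3, MRPL42, MRPL37, MRPS16 and MRPS27, with means between 149 and 112 FPKM, and from MRPS33 on the ranges of neighbours in that order overlapped over the 6 libraries. Replicates of a group differed by a median coefficient of variation of 13.3% in oeALKBH5 and 11.2% in NC libraries, near the 12.1% and 10.8% of other genes at that level. In 4 members it passed 40% in a group: MRPS28, MRPL52, MRPL53 and MRPL30. MRPL30 was at 3.63, 3.45 and 7.42 FPKM in oeALKBH5 libraries, against 0.606, 23.5 and 5.09 FPKM in NC libraries, so no direction can be given for it (log2 fold change -0.16, SE 0.82).

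Promoter sequences of these genes were searched for motifs, and no motif searched was found in most of them. RefSeq windows of GRCh38.p14, from 250 bases before to 50 bases after each annotated start, were matched for 67 of the 76 genes, 83 windows in all. Motifs of factors known for nuclear genes of mitochondria were searched on both strands. The ETS motif CCGGAAG, which GABPA binds, was in the windows of 29 of 67 members (43.3%), against 22.6% of 10153 tested genes with a window and 12.2% of all 27305 genes with a window. The YY1 motif AAGATGGCG was in those of 13 members (19.4%), against 4.75% of tested genes and 2.14% of all genes. A strict form of the NRF1 motif was in 8 members (11.9%), against 13.6% of tested genes and 6.98% of all genes, and the E-box CACGTG in 8 members (11.9%), against 12.8% and 8.77%. The median log2 fold change of members was -0.16 with and -0.20 without the ETS motif, -0.18 and -0.17 for YY1, -0.20 and -0.17 for NRF1, and -0.28 and -0.16 for the E-box; these differences were not tested. A match says only that the letters occur in the window.

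The upstream 250 bases of MRPL20 and of 1 of the 2 annotated starts of MRPS33 are given because both genes fell, with motif matches in capitals. In MRPL20 (GRCh38.p14 chr1:1407294-1407543, minus strand) the ETS motif occurs 2 times, beginning at 44 and 21 bases before the start. In MRPS33 (GRCh38.p14 chr7:141014953-141015202, minus strand) the NRF1 motif begins 155 bases before the start, and an ETS match on the other strand begins at base 1, just past the stretch shown; the window of the other start holds an E-box that begins 101 bases before it.
MRPL20: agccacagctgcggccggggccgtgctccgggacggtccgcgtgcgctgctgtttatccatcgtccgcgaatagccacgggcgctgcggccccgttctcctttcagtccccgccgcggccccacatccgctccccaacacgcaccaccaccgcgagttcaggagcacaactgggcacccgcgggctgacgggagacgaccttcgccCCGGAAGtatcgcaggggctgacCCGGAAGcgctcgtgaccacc
MRPS33: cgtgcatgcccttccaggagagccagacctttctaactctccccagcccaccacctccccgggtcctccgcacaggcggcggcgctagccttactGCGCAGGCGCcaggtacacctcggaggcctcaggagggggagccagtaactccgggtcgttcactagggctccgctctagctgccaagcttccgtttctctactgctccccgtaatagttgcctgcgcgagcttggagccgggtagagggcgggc

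The YY1 matches lay mostly just after the start: 10 of 14 matches in member windows did, as did 64.5% of those in windows of all tested genes, and 12 of 14 were on the coding strand. The motif there contains an ATG; whether it is the start codon was not examined. These 4 members show the shared letters, each as 30 bases with the match in capitals: MRPS24, which fell (chr7:43869479-43869508, minus strand), MRPL38 (chr17:75904859-75904888, minus strand), and the paralogues MRPS18A (chr6:43687763-43687792, minus strand) and MRPS18B (chr6:30617853-30617882, plus strand), all in GRCh38.p14. The match begins at base 20, 7, 10 and 24 of the transcript in that order.
MRPS24: cgcttggcccAAGATGGCGgcctccgtgtg
MRPL38: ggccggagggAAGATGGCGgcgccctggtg
MRPS18A: taggtttttgAAGATGGCGgccctcaaggc
MRPS18B: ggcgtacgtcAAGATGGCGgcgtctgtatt

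Factors that act with the mitochondrial ribosome were read from lists written by hand from their known roles. The 5 ribosomal proteins that lack an MRP symbol, AURKAIP1, CHCHD1, DAP3, GADD45GIP1 and PTCD3, all had negative log2 fold changes, from -0.50 for CHCHD1 to -0.05 for PTCD3, and none passed the test. Of 27 tested assembly and rRNA modification factors, 2 fell and 25 missed the threshold, with a median of -0.13. The share called lower was 7.41%, against 2.43% of all tested genes. GTPBP6 was listed at 0 in every library and not tested. C1QBP, an RNA-binding matrix protein, was at 321, 286 and 317 FPKM in oeALKBH5 libraries, against 359, 409 and 398 FPKM in NC libraries (log2 fold change -0.33, limma adjusted p = 0.0407). AFG3L2, the protease subunit that processes MRPL32, was at 42.7, 41.6 and 47.2 FPKM against 64.9, 57.5 and 58.2 FPKM (log2 fold change -0.45, limma adjusted p = 0.048). Of the 6 leave-one-out fits, 5 ended the call of C1QBP, all but that without NC replicate 1 (up to adjusted p = 0.152), and 6 that of AFG3L2 (up to 0.146).

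None of the 19 mitochondrial translation factors was called, by limma over all genes, and their median log2 fold change was -0.04; the elongation factor TUFM, named after its values were seen, had -0.08. Of 20 genes of mitochondrial transcription and RNA processing, 1 fell (5%, against 2.43% of all tested genes called lower) and 19 missed the threshold. TBRG4, which stabilises mitochondrial mRNAs, was at 40.7, 35.2 and 45.8 FPKM in oeALKBH5 libraries, against 58.7, 69.2 and 58.6 FPKM in NC libraries (log2 fold change -0.61, limma adjusted p = 0.0334); all 6 leave-one-out fits ended its call (up to 0.106). Of the 9 regulators of mitochondrial biogenesis, 7 had positive log2 fold changes and none was called. MYC, named after its values were seen, was at 101, 92.3 and 109 FPKM in oeALKBH5 libraries, against 76.6, 82 and 77.8 FPKM in NC libraries. Its log2 fold change was 0.35 (limma adjusted p = 0.0707). Every oeALKBH5 library lay above every NC library in MYC alone, or 11.1% of the regulators, against 15.1% of all tested genes. GABPA and YY1, whose motifs are given above, had log2 fold changes of 0.16 and 0.15, and NRF1 -0.41, none called.

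Of 24 tested genes of mitochondrial protein import, the route by which ribosomal proteins enter, 2 fell, 1 rose and 21 did not pass. The shares called were 8.33% lower and 4.17% higher, against 2.43% and 3.02% of all tested genes. In this list, 19 log2 fold changes were negative and the median was -0.22. TIMM8B, a chaperone of the intermembrane space, was at 46.2, 44.6 and 41.7 FPKM in oeALKBH5 libraries, against 69.2, 63.3 and 76.7 FPKM in NC libraries (log2 fold change -0.64, limma adjusted p = 0.0137). TOMM7, a small subunit of the outer membrane pore, had a log2 fold change of -0.40 (limma adjusted p = 0.0323), and TOMM20, a receptor of that pore, one of 0.41 (limma adjusted p = 0.0392), so subunits of this complex differed in direction. TIMM8B lost its call without oeALKBH5 replicate 3 and without NC replicate 3 (up to adjusted p = 0.0703), and TOMM7 and TOMM20 without any 1 library (up to 0.0987 and 0.136). Among the 13 genes whose proteins the mitochondrial ribosome makes, 4 fell (MT-CO3, MT-CO2, MT-ND1 and MT-CYB), 1 rose and 8 missed the threshold. The shares called were 30.8% lower and 7.69% higher, against 2.43% and 3.02% of all tested genes. Of the 8, MT-ATP8 was at 1307, 8.52e-24 and 778 FPKM in NC libraries and MT-ND3 at 1139, 0.446 and 0.485 FPKM. No direction can be given for either. Leaving out 1 library ended the call of MT-CO2 in 2 fits, that of MT-ND1 in 4 and that of MT-CO3 or MT-CO1 in none. The values of MT-CYB in these fits are not given here. MT-CO3 had a log2 fold change of 0.00 (limma adjusted p = 1) under quantile normalization. Without the filter on low values, the calls of MT-CO3, MT-CO2 and MT-ND1 were lost (adjusted p of 0.0689, 0.0574 and 0.0857), and without the intensity trend these 3 and that of MT-CO1 were (0.176, 0.156, 0.245 and 0.0531). MT-CO1 rose, with 4016, 3119 and 4709 FPKM in oeALKBH5 libraries against 2103, 1901 and 1962 FPKM in NC libraries.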

How the data were processed

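RNA of 12 C4-2 samples was sequenced, of which the 6 input libraries are used here; the 6 lists of m6A peaks are in hg19 coordinates and were not used here, since assigning peaks to genes needs an annotation of that build. The deposited gene values are FPKM, named as such from the tools and values since the authors' table gives no unit. Cufflinks and Cuffdiff, HISAT2 2.0.4, cutadapt 1.9.3 and hg19 are named, without role or order, per the submitters' processing notes; libraries were directional and depleted of ribosomal RNA, per the labels' protocols. Of 20308 genes, 19434 had a symbol.

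Samples were grouped by their titles. The 12757 genes whose mean reached 0.5 FPKM were fitted as log2(FPKM + 1), using the intensity trend of limma 3.58.1 (R 4.3.3), and Benjamini-Hochberg adjustment ran over all of them, with a threshold of 0.05. Fold changes are oeALKBH5 minus NC on that scale, which understates low genes. FPKM keeps no depth, so no counting interval is given. The steps were tested on simulated data. Alternatives were other pseudocounts, filters, scalings and variance models, a replicate block and leaving out each library with the tested genes kept. Subunit, class and site lists and companion lists, 10 in all, were written by hand, and 3 of their symbols had no row. Named genes were the called members, the 8 lowest and 8 highest others, the extremes of level, the MRPS18 paralogues, MRPS36 and up to 4 called genes per list; exceptions are marked, and further members are given within their lists. Members and lists were chosen with earlier results of these data known. Other steps ran in Python 3.11.15 (pandas 2.3.3); figures were drawn with matplotlib 3.10.9.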

Additional observations from a re-analysis of the deposited data

How the results depend on the processing

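The median log2 fold change of the 76 genes was negative in all 15 alternatives, from -0.24 without NC replicate 1 to -0.15 without NC replicate 2, and between 60 and 68 members were negative. The median of all tested genes stayed between -0.01 and 0.02. No alternative called a member higher. The 4 calls lower were 2 without a filter on low values, 0 without the intensity trend, 0 with the replicate block and 0 to 2 when 1 library was left out. Of all genes, 695 were called, against 421 without the filter, 270 without the trend, 344 with the replicate block and 206 to 398 with 1 library left out; fewer samples or residual degrees of freedom are part of the last 2 settings, and otherwise the cause was not tested. Samples that share a number did not deviate together (correlations of -0.017, -0.0205 and 0.0315 for numbers 1, 2 and 3). The labels do not say whether a shared number marks a batch, and with 3 libraries per group these correlations cannot decide it. Members near 0 changed sign: MRPL30 (-1.13 to 0.84 over leave-one-out fits) was 0.07 with a pseudocount of 0.1 FPKM, 0.01 without oeALKBH5 replicate 2 and 0.84 without NC replicate 2; MRPS36 (-0.14 to 0.12) was -4.7e-03 under median scaling, -0.08 without oeALKBH5 replicate 3 and -0.14 without NC replicate 2; MRPL53 (-0.16 to 0.50) was negative without oeALKBH5 replicate 1 or 3 or NC replicate 1 or 3; MRPL34 (-0.05 to 0.36) was -0.05 without oeALKBH5 replicate 3 or NC replicate 1; MRPL17 (-0.04 to 0.16) was -0.04 without oeALKBH5 replicate 2 and -2.3e-03 without NC replicate 2; MRPS18A (-0.09 to 0.01) was 0.01 without NC replicate 2. Depth is unknown, so low members such as MRPL30 have no stated precision beyond their spread.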

Other observations

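Some mitochondrial ribosomal protein genes share a promoter region with a neighbour that is read in the opposite direction. In the RefSeq annotation of GRCh38.p14, 21 of the 67 members with a promoter window had a tested gene with a divergent start within 1000 bases. How often this holds for all tested genes was not counted. MRPL46 and MRPS11, 1 such pair, joined 2 members. The 21 partners had a median log2 fold change of -0.06, with 11 negative, and the members beside them a median of -0.22. The other members, which include the 9 without a window, had -0.14. Only TCP1, a subunit of the cytosolic chaperonin and the neighbour of MRPL18, was called (log2 fold change -0.36, limma adjusted p = 0.0274, oeALKBH5 minus NC). That is 1 of 21 partners, where 5.45% of all tested genes were called in either direction. The neighbour of MRPL32, the proteasome subunit gene PSMA2, had -0.26 (limma adjusted p = 0.0971), and MRPL32 -0.41; MRPL18 had -0.34 and was not called. PPP1R10, the neighbour of MRPS18B, had 0.37 where MRPS18B had -0.26, and ZNF189, the neighbour of MRPL50, had 0.41 where MRPL50 had -0.04; neither was called. The difference between members and partners was not tested.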
